A study of Mus musculus with 20 samples.

Results

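The ADAM genes encode membrane-anchored proteases with a disintegrin domain, and 10 of them were followed here across the left ventricle of mice given doxorubicin (DOXO) with or without folic acid (FA). They were Adam4, Adam8, Adam9, Adam10, Adam12, Adam15, Adam17, Adam19, Adam22 and Adam23, 10 of the 19937 genes that had a transcript cluster of their own on the array. A transcript cluster is the summary of the probes along a gene, and a cluster was used only if its annotation gave exactly 1 gene symbol. Each of the 10 genes had 1 such cluster. Adam4 was included because the study had singled it out from these same arrays, so its values are given as a description with no test.

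The hearts were those of 20 male C57BL/6 mice, 2 months old according to the labels. Each had an Affymetrix Mouse Gene ST array of its own. The groups were FA-DOXO (6 mice, DOXO and FA), DOXO (6 mice, DOXO and placebo), FA-sham (4 mice, FA without DOXO) and sham (4 mice, placebo without DOXO). DOXO was a single intraperitoneal dose of 20 mg/kg. Mice on FA received 10 mg each day, starting 7 days ahead of DOXO, and the experiment lasted 10 days. The arrays of both DOXO groups came from mice that lived until tissue was taken.

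ADAM proteases cut the outer parts of membrane proteins off the cell surface, a step known as ectodomain shedding. Growth factors, cytokines, adhesion molecules and receptors are released or switched in this way. Adam17 is the main enzyme that releases tumour necrosis factor, and Adam10 makes the first cut in activated Notch receptors. Other members, such as Adam12 and Adam19, are tied to muscle and heart development in mice, and Adam22 and Adam23 have lost the catalytic zinc site and serve as cell surface receptors. Most further ADAM genes of the mouse are used in testis and epididymis, where their products act in sperm maturation.

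Levels below are log2 signals minus the median of the same array, so that 0 is the array median, and they are compared between mice for 1 gene at a time. The table has no detection calls, and whether a level near the array median lay above background was not tested. The spread of the signals was not the same on all arrays. The SD of an array lay between 0.863 and 1.5, and 8 arrays with an SD above 1.1 are called wide and the other 12 narrow. Wide arrays were those of 2 of 6 FA-DOXO, 2 of 6 DOXO, 1 of 4 FA-sham and 3 of 4 sham mice, and the mean SD was 1.04, 1.13, 0.957 and 1.27 in these groups. All 6 cardiomyocyte markers averaged above the array median in every group, but their mean level was 4.20 to 6.56 on wide arrays and 1.3 to 3.61 on narrow ones. In pieces of tissue, fewer cells of a type and less RNA per cell cannot be told apart.

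Adam4, a mouse gene known mainly from testis, lay near the array median in each of the 4 groups and lowest in DOXO hearts. The FA-DOXO arrays were at 0.22, 0.099, -0.042, 0.054, -0.031 and -0.054, and the DOXO arrays at -0.29, -0.43, -0.11, -0.36, -0.50 and -0.028. FA-sham arrays were at 0.026, 0.22, 0.15 and -0.25, and sham arrays at 0.094, 0.36, -0.0072 and 0.25. All 6 DOXO hearts were thus below the array median, against 3 of 6 FA-DOXO, 1 of 4 FA-sham and 1 of 4 sham hearts. The group means were 0.042 ± 0.11 in FA-DOXO (SD, n = 6), -0.29 ± 0.18 in DOXO (n = 6), 0.036 ± 0.21 in FA-sham (n = 4) and 0.18 ± 0.16 in sham (n = 4). In order of level the groups ran sham, FA-DOXO, FA-sham and DOXO, and the means of the first 3 differed by less than the SD of the sham group.

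Against the array median, every DOXO heart was lower in Adam4 than every sham heart. The margin was small, with DOXO replicate 6 at -0.028 and sham replicate 3 at -0.0072. On the signals as deposited these groups overlapped, with DOXO replicate 6 at 6.58 and sham replicate 3 at 6.32. Of all 34760 clusters, 0.426% did not overlap between DOXO and sham against the array median, and 0.222% were lower without overlap. Since Adam4 had been picked from these arrays, nothing is read from its being among them. FA-DOXO and DOXO hearts overlapped, with 3 of 6 FA-DOXO hearts above every DOXO heart. FA-DOXO overlapped with FA-sham and FA-sham with sham.

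**Figure D1:**
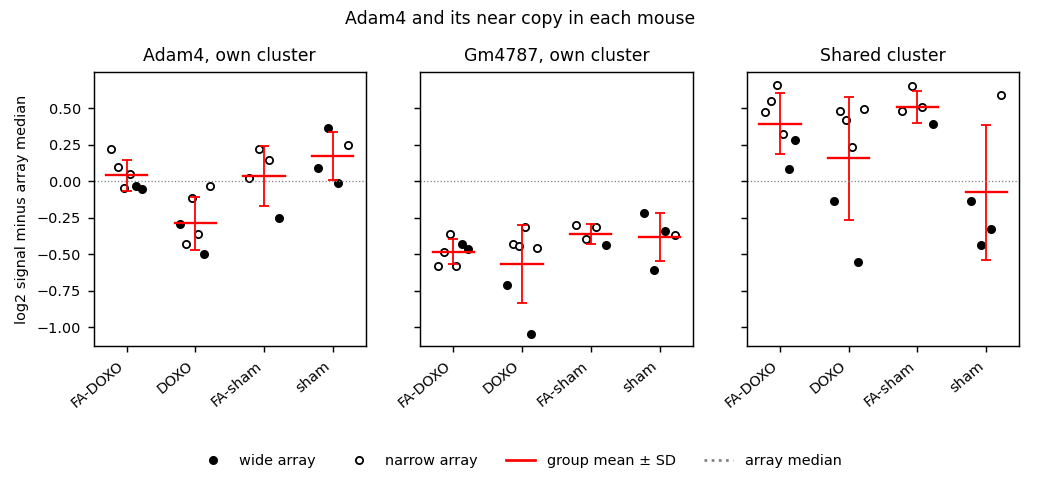
Level of Adam4, of its near copy Gm4787 and of the cluster annotated to both genes in each mouse, as log2 signal minus the array median (vertical axis, the same in the 3 panels), by group. Points are mice, filled on wide and open on narrow arrays, red bars are group means with SD, and the 6 DOXO points of Adam4 all lie below 0 while the shared cluster is at or below -0.14 on the 3 wide sham arrays.

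On the signals as deposited, Adam4 differed by -0.34 (SE 0.15) between DOXO and sham, by 0.39 (SE 0.14) between FA-DOXO and DOXO, by -0.049 (SE 0.15) between FA-DOXO and FA-sham, and by 0.096 (SE 0.17) between FA-sham and sham, in log2 units. DOXO arrays enter the first and the second of these, so these values are not independent. The difference between FA-DOXO and DOXO was 0.50 on wide arrays alone, 0.34 on narrow arrays alone and 0.31 with the array SD as a covariate. That between DOXO and sham was -0.54, -0.48 and -0.46 in the same settings. Wide arrays set 2 DOXO against 3 sham hearts there, and narrow arrays 4 DOXO hearts against 1 sham heart. With array weights the difference between DOXO and sham was 0.0090. The weights fell mostly on 1 sham array. Between FA-sham and sham the sign was positive as deposited but turned in 5 of 12 other settings. Median centring (-0.14) and the array SD as a covariate (-0.17) were among these 5. Some of the 12 could not change the value.

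Markers of testis germ cells were measured beside Adam4, as its best known site of use. The mean level of the 6 markers on an array lay between -0.34 and -0.070 in FA-DOXO, -0.45 and -0.066 in DOXO, -0.25 and -0.065 in FA-sham, and -0.54 and -0.15 in sham hearts. None of the 6 passed an unadjusted p of 0.01 in any comparison.

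Adam4 has a near copy in the mouse genome, Gm4787, also listed as Adam4b. In RefSeq only the pseudogene Hspe1-ps2 lies between the pair, and the spans of Cox16 and Gm20498 overlap that of Adam4. Gm4787 averaged -0.48 ± 0.085 in FA-DOXO, -0.57 ± 0.27 in DOXO, -0.36 ± 0.066 in FA-sham and -0.38 ± 0.16 in sham hearts. Its low mean in DOXO came with 2 wide arrays at -0.71 and -1.04, while the other 4 DOXO arrays lay between -0.45 and -0.31. A further cluster is annotated to Adam4 and Gm4787 together. It stood at 0.40 ± 0.21 in FA-DOXO, 0.16 ± 0.42 in DOXO, 0.51 ± 0.11 in FA-sham and -0.075 ± 0.46 in sham hearts. In that cluster the sham group was the lowest of the 4, whereas in the own cluster of Adam4 it was the highest. Within groups, wide arrays were lower than narrow ones by 0.53 in the shared cluster, and by 0.18 (SE 0.070) in the own cluster of Adam4. Whether probes of Adam4 also bind RNA of the copy was not tested.

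For the other 9 genes, the fit across all clusters gave few differences. Between DOXO and sham, 0 of 9 passed an unadjusted p of 0.01 with limma, where 1.05% of all clusters did, and 2 of 9 passed 0.05 (5.73% of all). Between FA-DOXO and DOXO 0 of 9 passed 0.01 (0.158% of all) and 0 of 9 passed 0.05 (1.31% of all). Between FA-DOXO and FA-sham the count was 0 of 9 at 0.01 (0.268% of all) and 0 of 9 at 0.05 (1.25% of all).

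Between FA-sham and sham 1 of 9 passed 0.01 (4.35% of all), and 4 of 9 passed 0.05, where 31.0% of all clusters did. For the interaction, the change of the DOXO effect with FA, 0 of 9 passed 0.01 (0.463% of all) and 1 of 9 passed 0.05 (5.19% of all). After Benjamini-Hochberg adjustment over all clusters none of the 9 passed 0.05 in any comparison with limma, with adjusted p from 0.156 to 1.00. Over all clusters, 1 passed the adjusted threshold between DOXO and sham (0.00288%), 1 between FA-DOXO and FA-sham (0.00288%) and 0 in the other comparisons. No gene of the 9 had groups without overlap in any of the 4 comparisons between groups. Of all clusters, 0.426% did between DOXO and sham, 0.147% between FA-DOXO and DOXO, 1.01% between FA-DOXO and FA-sham, and 3.78% between FA-sham and sham. As deposited, the median over all clusters was itself shifted by 0.19 between FA-sham and sham and by -0.13 in the interaction, and single values are to be read against that shift.

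**Figure D2:**
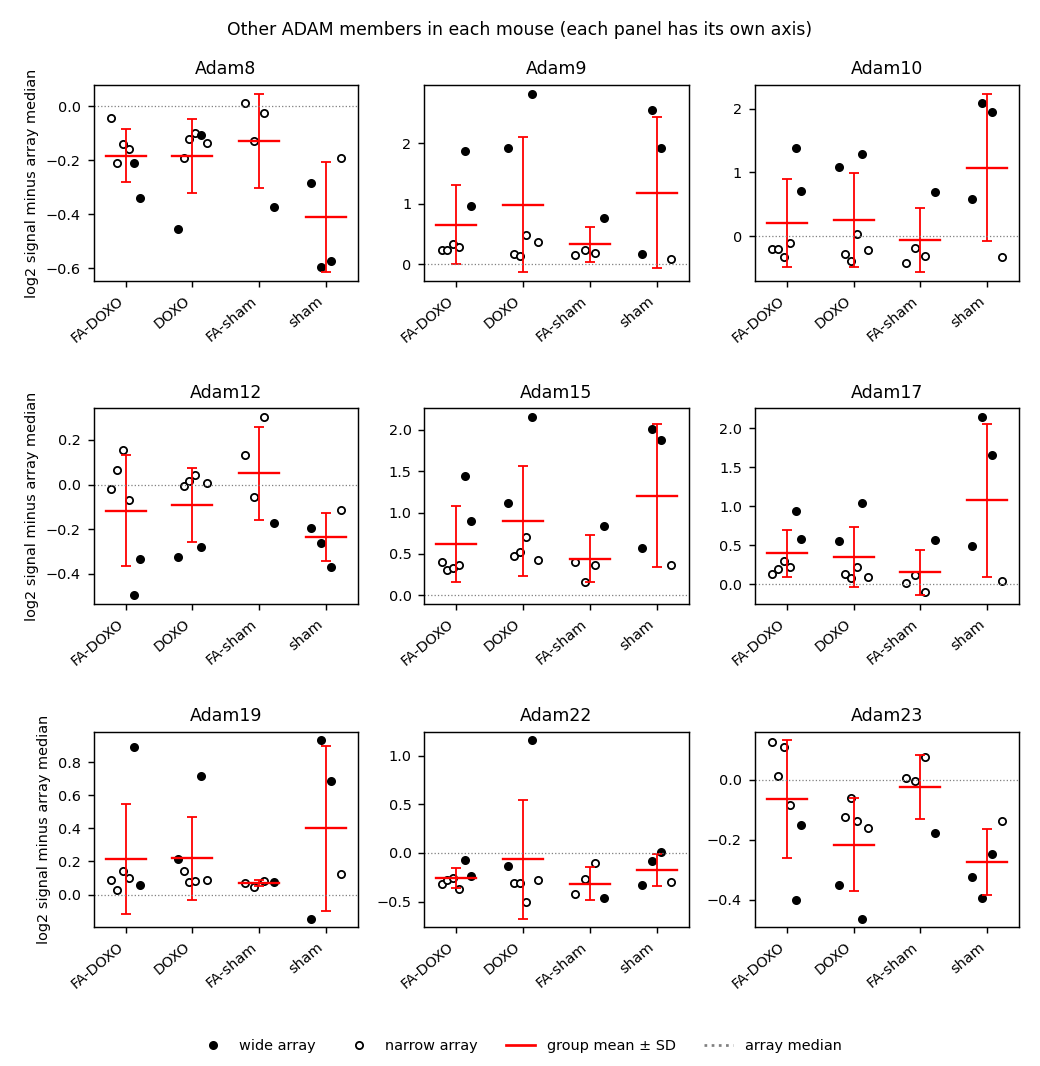
Level of the other 9 genes in each mouse, as log2 signal minus the array median (vertical axis, its own scale in each panel), by group, with filled points for wide and open points for narrow arrays and red bars for group means with SD. Adam10 and Adam17 stand higher on every wide array than on every narrow one, and Adam12 lower.

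Adam17 and Adam10, the most broadly used sheddases, had their highest group means in sham hearts, on wide arrays. Adam17 was at 0.13, 0.20, 0.30, 0.22, 0.93 and 0.58 in FA-DOXO, and at 0.55, 0.13, 0.074, 0.23, 1.05 and 0.086 in DOXO hearts. FA-sham hearts were at 0.020, 0.12, -0.10 and 0.57, and sham hearts at 0.49, 2.14, 1.65 and 0.036. All groups overlapped, and the sham group held both the highest value and 1 of the lower values. The difference between DOXO and sham was -0.61 (SE 0.26, adjusted p = 0.647), with a 95% interval of -1.16 to -0.055. Between FA-sham and sham it was -0.69 (SE 0.29, adjusted p = 0.156), and the interaction was 0.80 (SE 0.37, adjusted p = 0.570). Neither 0.11 (SE 0.24) between FA-DOXO and DOXO nor 0.19 (SE 0.26) between FA-DOXO and FA-sham exceeded its error.

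The Adam17 values moved with the spread of the arrays. Within groups, Adam17 was 0.74 (SE 0.18) higher on wide than on narrow arrays. The difference between DOXO and sham was -0.63 on wide arrays alone, 0.091 on narrow arrays alone and -0.40 with the array SD as a covariate. Only 1 sham array was narrow. Without that array, sham replicate 4, the DOXO difference of Adam17 was -0.89 and passed 0.01, where 7.43% of all clusters passed. It also passed without sham replicate 1, and without sham replicate 2 it was -0.31, not past 0.01.

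Adam10 showed the same split by array. On the 8 wide arrays it was at 1.38 and 0.70 in FA-DOXO, 1.09 and 1.28 in DOXO, 0.69 in FA-sham, and 0.58, 2.09 and 1.94 in sham hearts. On the 12 narrow arrays it lay between -0.32 and -0.11 in FA-DOXO, -0.39 and 0.029 in DOXO, and -0.42 and -0.19 in FA-sham hearts, and at -0.32 in the single sham heart. No narrow array reached the lowest wide one. Within groups the wide arrays were 1.36 (SE 0.18) higher. The difference between DOXO and sham was -0.70 (SE 0.41, adjusted p = 0.647), with an interval of -1.56 to 0.16, and that between FA-sham and sham was -0.89 (SE 0.45, adjusted p = 0.167). With the array SD as a covariate these were -0.29 (SE 0.13) and 0.018 (SE 0.16). On narrow arrays alone the difference between DOXO and sham was 0.10, with the sign turned, and with 1 array left out it ran from -1.09 without sham replicate 4 to -0.41 without sham replicate 2.

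Adam9, Adam15, Adam12 and Adam19 are further active proteases, Adam12 and Adam19 also being known as meltrins. Adam9 and Adam15, which are present in many tissues, were again high on wide arrays. Adam9 averaged 0.66 ± 0.65 in FA-DOXO, 0.98 ± 1.11 in DOXO, 0.33 ± 0.29 in FA-sham and 1.18 ± 1.25 in sham hearts. Its values ran from 0.081 to 0.49 on narrow arrays and from 0.17 to 2.81 on wide ones, so the spread within the groups was about as large as the means. Its difference between DOXO and sham was -0.081 (SE 0.49), with a wide interval of -1.10 to 0.94. The sign turned in 4 of 12 other settings and in 6 of 20 fits that left out 1 array. Some of the 12 settings, and the fits without an FA-sham or FA-DOXO array, could not change the value. It was 0.39 (SE 0.19) once the array SD was fitted, 0.81 on wide arrays alone and 0.32 without sham replicate 2. Adam15 averaged 0.62 ± 0.46 in FA-DOXO, 0.90 ± 0.66 in DOXO, 0.44 ± 0.28 in FA-sham and 1.21 ± 0.86 in sham hearts. The wide arrays were 1.39 (SE 0.29) higher than narrow ones in Adam9 and 0.91 (SE 0.19) higher in Adam15. With the array SD as a covariate, the difference of Adam9 between FA-sham and sham was 0.44 (SE 0.23), against -0.61 (SE 0.53) as deposited, and that of Adam15 was 0.086 (SE 0.19), against -0.53 (SE 0.33).

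Adam12 went the other way with the arrays. Wide arrays lay between -0.50 and -0.17 and narrow ones between -0.11 and 0.30, a gap within groups of -0.33 (SE 0.051). Group means were -0.12 ± 0.25 in FA-DOXO, -0.091 ± 0.17 in DOXO, 0.051 ± 0.21 in FA-sham and -0.23 ± 0.11 in sham hearts. The sham group, with 3 of 4 wide arrays, was the lowest. Between FA-sham and sham the difference was 0.52 (SE 0.21, adjusted p = 0.156) as deposited, 0.29 after median centring and 0.13 with the array SD as a covariate.

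Adam19, needed for heart valve and septum formation in mice, was flat on most arrays. It lay between 0.027 and 0.14 on all 12 narrow arrays. On wide arrays it reached 0.89 in 1 FA-DOXO, 0.72 in 1 DOXO, and 0.93 and 0.69 in 2 sham hearts, while the other 4 wide arrays lay between -0.14 and 0.21. No difference between groups exceeded its error, and that between DOXO and sham was -0.061 (SE 0.16).

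**Figure D3:**
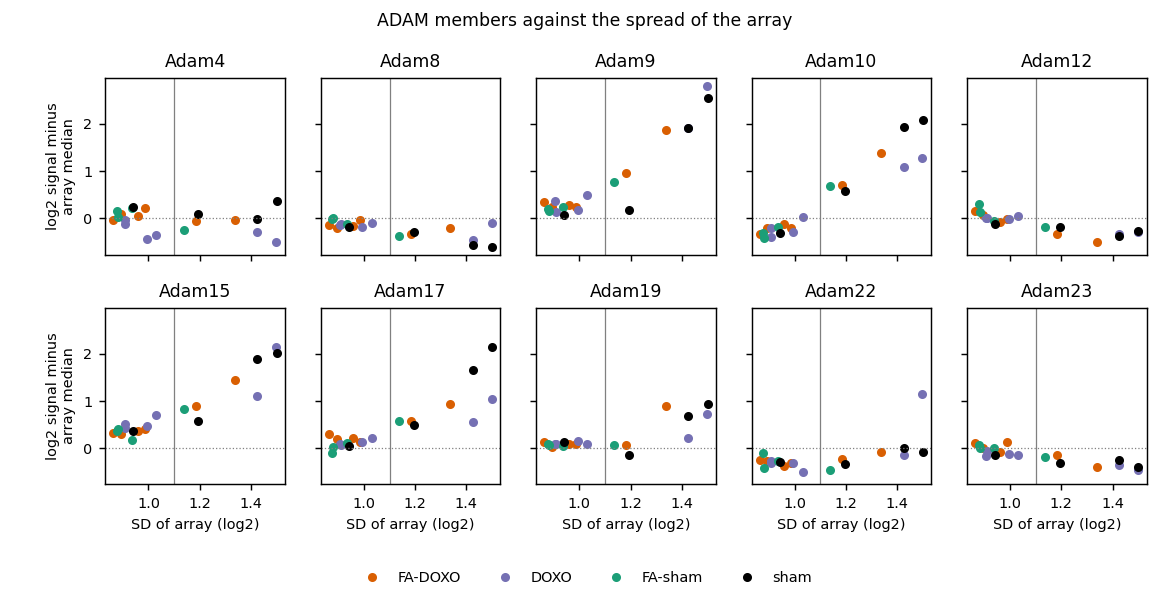
Level of each of the 10 genes (vertical axis, log2 signal minus the array median) against the SD of all log2 signals of the array (horizontal axis), 1 point per mouse, coloured by group, with a vertical line at the SD of 1.1 that divides narrow from wide arrays. Adam9, Adam10, Adam15 and Adam17 climb to between 2.09 and 2.81 at the right, and Adam4 stays between -0.50 and 0.36.

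Adam8, a protease of leukocytes, was lowest in sham hearts. Its values were -0.044, -0.21, -0.14, -0.16, -0.21 and -0.34 in FA-DOXO, and -0.46, -0.19, -0.12, -0.097, -0.11 and -0.14 in DOXO hearts. FA-sham hearts were at 0.012, -0.13, -0.023 and -0.37, and sham hearts at -0.28, -0.60, -0.57 and -0.19. The sham values overlapped those of every other group. Adam8 was the single gene of the 9 past 0.01 between FA-sham and sham, with 0.52 (SE 0.17, interval 0.15 to 0.88, adjusted p = 0.156), against the median of 0.19 over all clusters. The call was lost after median centring (0.28), with the array SD as a covariate (0.22), and on wide arrays alone (0.40) or narrow arrays alone (0.17). It was also lost without sham replicate 2 or 3 or FA-sham replicate 1, 2 or 3. Without sham replicate 4 the count was 5 of 9 in place of 1, where 28.1% of all clusters passed.

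Between DOXO and sham, Adam8 differed by 0.34 (SE 0.16, adjusted p = 0.647). This was 0.23 after median centring, 0.21 with the array SD fitted, 0.20 on wide arrays alone and 0.053 on narrow arrays alone, and it passed 0.01 only without sham replicate 4 or DOXO replicate 1 or with array weights. Neutrophil markers moved in the same comparison. Of 5 such markers 4 passed 0.01, where 1.05% of all clusters did, and all 4 were higher in DOXO. After Benjamini-Hochberg adjustment 0 of 5 passed 0.05. The mean level of the 5 on an array ran from -0.15 to 1.21 in DOXO and from -0.65 to -0.20 in sham hearts. In FA-DOXO hearts it ran from -0.037 to 0.33 and in FA-sham hearts from -0.30 to -0.10. None of the 5 markers averaged above the array median in sham hearts, and 4 of 5 did in DOXO hearts. Between FA-sham and sham 1 of the 5 passed 0.01, higher in FA-sham, where 4.35% of all clusters passed. The median difference of the 5 was 0.47, against 0.19 over all clusters. Of the other leukocyte lists, 0 of 4 macrophage, 0 of 3 T cell and 0 of 2 B cell markers passed 0.01 in either comparison. Between DOXO and sham their median differences were -0.26, 0.19 and 0.046, against 0.096 over all clusters. Between FA-sham and sham they were -0.35, 0.59 and 0.32. What part any of these cells had in the Adam8 values was not tested. Between FA-DOXO and DOXO, Adam8 differed by 0.064 (SE 0.14), with an interval of -0.23 to 0.36.

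Adam22 and Adam23 bind secreted LGI proteins, which at synapses tie the membranes of nerve cells together. Adam22 was below the array median in all but 2 of the 20 hearts. It lay between -0.37 and -0.072 in FA-DOXO, between -0.51 and 1.16 in DOXO, between -0.47 and -0.10 in FA-sham, and between -0.33 and 0.0068 in sham hearts. A single DOXO heart, replicate 5, stood at 1.16, and the other 5 DOXO hearts were between -0.51 and -0.14. Between FA-DOXO and DOXO the difference was -0.13 (SE 0.17), and without that heart it was 0.076.

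Adam23 averaged -0.066 ± 0.20 in FA-DOXO, -0.22 ± 0.15 in DOXO, -0.026 ± 0.11 in FA-sham and -0.28 ± 0.11 in sham hearts. The difference between FA-sham and sham was 0.48 (SE 0.19, adjusted p = 0.156) as deposited and 0.14 (SE 0.080) with the array SD as a covariate, and that between FA-DOXO and DOXO was 0.21 (SE 0.15). Its values were 0.26 (SE 0.039) lower on wide than on narrow arrays within groups.

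Of 7 ligands and partners of Adam22 and Adam23, 1 passed 0.01 between DOXO and sham, where 1.05% of all clusters did. That gene, Lgi1, the best known ligand of Adam22 and Adam23, was lower in DOXO than in sham hearts. The other 6 did not pass 0.01 in any comparison. Lgi1 averaged -0.25 ± 0.19 in FA-DOXO, -0.50 ± 0.30 in DOXO, -0.19 ± 0.34 in FA-sham and 0.80 ± 1.14 in sham hearts. The sham group was highest and varied most. The difference was -1.17 (SE 0.29, adjusted p = 0.647) between DOXO and sham. Adding the array SD as a covariate gave -1.0, still past an unadjusted 0.01 but with an adjusted p of 0.098 in limma. The difference was -1.42 on wide arrays alone and -0.13 on narrow arrays alone, neither past 0.01.

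**Figure D4:**
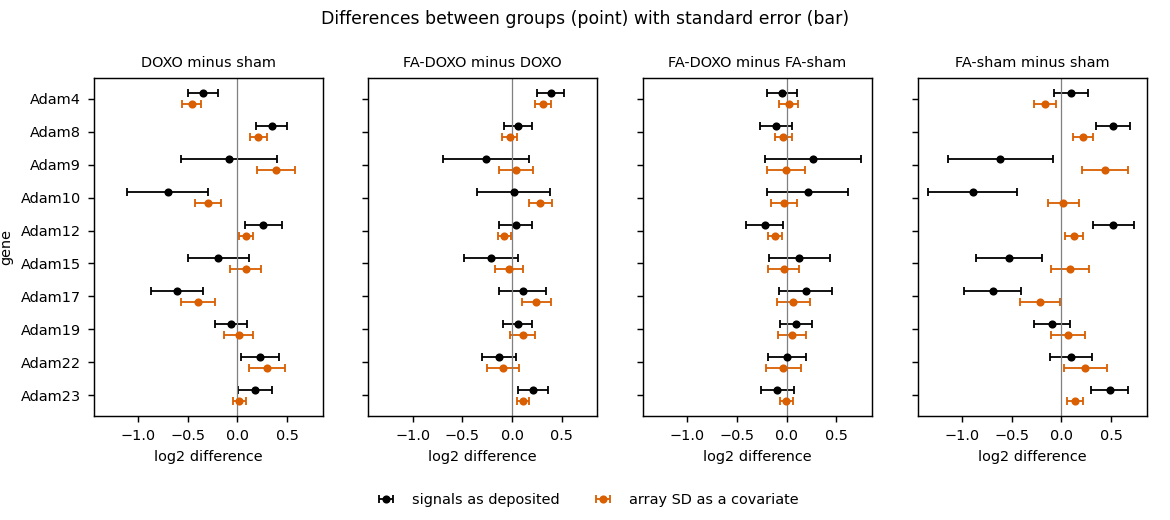
Log2 difference between groups (horizontal axis) with its SE (bar) for the 10 genes in the 4 comparisons, black for signals as deposited and orange with the array SD as a covariate. Once the array SD is fitted, the DOXO difference of Adam10 is -0.29 in place of -0.70, and that of Adam4 between FA-DOXO and DOXO is 0.31 in place of 0.39.

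The wider family was also measured. Of 20 other ADAM genes, mostly of testis and epididymis, 0 passed 0.01 in any comparison. Their median difference between FA-sham and sham was 0.44, against 0.19 over all clusters. Within groups, 1 of 20 was higher on wide than on narrow arrays, where 48.7% of all clusters were. Nearest to the threshold were Adam1b (0.61) and Adam32 (0.47), both between FA-sham and sham. Of 4 further ADAM genes of somatic tissues 0 passed, Adam28 being at 0.68 and Adamdec1 at 0.65 between FA-sham and sham.

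The ADAMTS genes encode secreted relatives that act on the extracellular matrix. Between FA-sham and sham 2 of 18 measured passed 0.01, where 4.35% of all clusters did, and 0 passed in the other comparisons. These were Adamts12 (0.55, SE 0.18) and Adamts18 (0.56, SE 0.19), both higher in FA-sham. With the array SD as a covariate these were 0.22 (SE 0.078) and 0.19 (SE 0.071), no longer past 0.01.

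Of 5 inhibitors, which include the tissue inhibitors of metalloproteinases, 0 passed 0.01. Timp1, an inhibitor of Adam10 among other enzymes, was at 0.41 ± 0.86 in FA-DOXO, 0.60 ± 0.95 in DOXO, -0.32 ± 0.070 in FA-sham and -0.30 ± 0.053 in sham hearts. The 2 groups given DOXO thus varied far more than those without it. Its difference between DOXO and sham was 1.02 (SE 0.40, adjusted p = 0.647). With the array SD as a covariate it was 1.23, past an unadjusted 0.01 but with an adjusted p of 0.159 in limma. Reck, a membrane-anchored inhibitor, differed by -0.28 (SE 0.11) in the same comparison.

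Of 13 genes that mature or carry ADAM proteins to the surface, 0 passed. Pcsk6 and Pcsk5, convertases that cut off propeptides, came nearest, with -0.64 (SE 0.23) for Pcsk6 between DOXO and sham and 0.55 for Pcsk5 between FA-sham and sham. Of 32 substrates measured, 1 passed 0.01 between FA-sham and sham, where 4.35% of all clusters did, and 0 passed in the other comparisons. That gene was Kl, which encodes the membrane protein klotho. It was 0.59 (SE 0.20, adjusted p = 0.156) higher in FA-sham than in sham hearts, and 0.21 higher with the array SD as a covariate, no longer past 0.01.

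Over the 20 arrays, the 5 genes whose levels were most like those of Adam4 were Smc2, BC052040, Cfap20dc, Fancb and Col3a1. They were picked for that likeness out of 19936 genes, with a median r of -0.015, so their r is a description, and all points share the 20 arrays. Pearson's r with Adam4 was 0.777 for Smc2, a condensin subunit that shapes chromosomes, 0.739 for BC052040, 0.739 for Cfap20dc, 0.725 for Fancb of the Fanconi anaemia core complex, and 0.724 for Col3a1, a fibrillar collagen. Spearman's rho was 0.767, 0.546, 0.669, 0.654 and 0.638 in that order. Without the 2 arrays farthest from the median of Adam4, DOXO replicates 5 and 2, r was 0.758, 0.677, 0.601, 0.580 and 0.565.

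Smc2 averaged -0.26 ± 0.10 in FA-DOXO, -0.43 ± 0.12 in DOXO, -0.25 ± 0.10 in FA-sham and -0.18 ± 0.21 in sham hearts, with DOXO the lowest group. Col3a1 averaged 0.72 ± 0.069 in FA-DOXO, 0.63 ± 0.15 in DOXO, 0.70 ± 0.040 in FA-sham and 0.80 ± 0.083 in sham hearts, again with DOXO lowest. Adam4 was itself lowest in DOXO, so this order follows in part from the pick and nothing is read from it. The other 9 ADAM genes, which were not picked for likeness, had r between -0.32 for Adam22 and 0.31 for Adam23. For Adam22, Spearman's rho was 0.024, and r turned to 0.32 without the arrays farthest from the median of Adam4. For Adam23 these values were 0.33 and 0.17. Smc2, Col3a1 and the genes listed with them were picked for a high r. Nothing is therefore read from the lower r of the ADAM genes.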

How the data were processed

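RNA of 20 left ventricles was hybridised to Affymetrix Mouse Gene ST arrays. The authors deposited log2 signals for 34760 transcript clusters, made with R 2.14.2 per the labels. Background correction, normalization and probe summary are, in the sources used here, not given, and array spread left in the signals enters every comparison. Groups and replicate numbers came from the labels, doses and times from the study's methods. Of the per-sample columns, 0 were left unused.

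One mean per group was fitted to all clusters with limma 3.58.1 (R 4.3.3), over all 20 arrays, without filter or covariate. The thresholds were the study's unadjusted p of 0.01 and a Benjamini-Hochberg adjusted p of 0.05, two-sided. Levels were centred on each array's median. The fit was tested on simulated data with independent noise and no difference in spread between arrays. That test does not cover wide and narrow arrays. With 4 to 6 arrays per group, the number of mice limits the precision. The members and lists were chosen with earlier results of these data known.

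The genes named are all 10 members, genes past 0.01 in any comparison, or otherwise up to 2 per list, of the further ADAM, ADAMTS, inhibitor, partner, ligand and substrate lists (cell type markers are given as lists), and the 5 genes most like Adam4. Wide arrays, with an SD above 1.1, were set apart by spread alone. Of all clusters, 21640 had 1 gene symbol, 1321 several and 11799 none in the platform annotation. RefSeq (GRCm38.p6) served for names and neighbours, all 10 members matched, and no coordinates or sequences are printed. The alternatives tried were quantile normalization, median centring, a filter on clusters below the 20th percentile of mean signal, only clusters with 1 symbol, a trended and robust fit, array weights, only the compared groups, the replicate number as a block, the array SD as a covariate, wide or narrow arrays alone, the mean of a gene's clusters, and each array left out. The cluster shared by Adam4 and Gm4787 and Adam22 without 1 DOXO array were added after seeing the data.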

Additional observations from a re-analysis of the deposited data

Results flagged for a closer look

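In 5 of 40 sets of values (10 genes in 4 groups), 1 heart stood apart from the rest of its group by Dixon's 95% critical value, which chance exceeds in about 1 of 20 sets. All 5 were on wide arrays, and what this spread has to do with them was not tested. Adam22 was at 1.16 in DOXO replicate 5, where the other 5 DOXO hearts lay between -0.51 and -0.14. Adam19 was at 0.72 in the same heart, against 0.078 to 0.21 in the others, and at 0.89 in FA-DOXO replicate 5, against 0.027 to 0.14. Adam9 was at 0.76 in FA-sham replicate 4, where the other 3 hearts lay between 0.15 and 0.23. Adam8 was at -0.46 in DOXO replicate 1, below the range of -0.19 to -0.097 of the others.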

How the results depend on the processing

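Between FA-sham and sham, the count of 1 of 9 genes past 0.01 fell to 0 after quantile normalization, after median centring, with only the compared groups, with the array SD as a covariate, and on wide arrays alone or narrow arrays alone. With array weights it was 8, as it was for DOXO against sham and for the interaction, both 0 without weights when all 20 arrays were fitted. The weights had not converged and gave sham replicate 3 a weight of 86.0, against 0.0728 to 4.38 for the other arrays, and 84.9%, 84.4% and 76.3% of all clusters then passed between DOXO and sham, between FA-sham and sham, and in the interaction.

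Leaving out 1 array gave counts from 0 to 5 between FA-sham and sham, 0 to 2 between DOXO and sham, and 0 to 1 for the interaction. The highest of each came without sham replicate 4, the narrow sham array, where the lowest adjusted p of the 9 between FA-sham and sham was 0.0283. Without it 28.1% of all clusters passed 0.01 between FA-sham and sham, 7.43% between DOXO and sham, and 4.91% in the interaction. Between FA-sham and sham the share was 0.685% without sham replicate 2. Of 1590 values of single differences under other settings, 1486 kept their sign and 104 changed it, and the cause was not tested. Many of the 1486 could not change. Both filters on clusters, the trended and robust fit, only the compared groups and the mean of clusters leave a difference as it is. So does leaving out an array of a group not compared, and the count is thus no measure of stability.

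With the replicate number as a block (replicate block), 1 of 9 passed between FA-sham and sham, Adam23 in place of Adam8, and 0 of 9 in the other comparisons. Only 12 of 26 same-numbered pairs had an r over 0.1 (median -0.064, against 0.22 for other pairs). Same-numbered arrays were often wide in 1 group and narrow in another, and array spread enters these r. They therefore cannot decide whether the numbers paired the mice. Each gene had 1 cluster, so the mean over clusters gave the same values. The 4 sham and 4 FA-sham arrays, with 3 and 1 wide ones, limit what can be said of these comparisons.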
